A study of Mus musculus with 7 samples.

Results

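The genes described here encode the proteins of the cytosolic ribosome, as measured by RNA sequencing in medullary thymic epithelial cells (mTECs). They were taken as all rows of biotype protein_coding whose symbol is Rpl or Rps followed by a digit, plus Rpsa, leaving out the Rps6k kinases, which gave 94 of the 55536 genes in the deposited table. Of these, 31 are the main genes of the small subunit, 43 are the main genes of the large subunit, 8 are paralogues or retrogenes, 11 carry a pseudogene symbol although their biotype is protein_coding, and 1, Rps19bp1, encodes a protein that binds Rps19 and is not part of the ribosome. The naming rule leaves out some proteins of the ribosome, among them the stalk proteins Rplp0, Rplp1 and Rplp2, Fau and Rack1, whose values are given separately.

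The mTECs were sorted from mouse thymus by surface EPCAM, and their RNA was copied by SMART-seq, which amplifies cDNA over the length of the transcript and is used where cells are few. The 3 libraries labelled Cre-positive (numbers 45, 76 and 80) carried Cre, floxed Ikzf1 on both alleles and Pou2f3 null on both alleles. The 4 libraries labelled Cre-negative (numbers 46, 48, 75 and 77) carried the same floxed Ikzf1 and null Pou2f3 alleles without Cre. Both groups are thus labelled null for Pou2f3, the factor on which tuft cells depend, and differ in whether Cre can delete part of Ikzf1, the gene of Ikaros. The cells that express Cre, the floxed exon, the age of the animals and whether each number is a separate animal are not given in the labels, so each p-value rests on the spread among the libraries, part of which may be technical.

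A cytosolic ribosome holds 1 copy of nearly every ribosomal protein, so the genes of this family are transcribed at high and coordinated levels in most cells. Their mRNAs commonly start with a terminal oligopyrimidine (TOP) tract, a C followed by a run of C and T, through which mTORC1 and the RNA-binding protein LARP1 control translation. Medullary thymic epithelial cells include dividing precursors, Aire-expressing cells and mimetic cells that resemble peripheral cell types, and ribosome content differs between growing and resting cells in general.

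Recovered totals ran from 11383465 to 11623062 reads in Cre-positive libraries and from 9815958 to 12599078 in Cre-negative libraries. Ikzf1 itself had 1310.3, 1828.6 and 1677.5 normalized counts in Cre-positive 45, 76 and 80, against 1118.7, 1149.5, 1146.8 and 1219.0 in Cre-negative 46, 48, 75 and 77 (limma adjusted p = 0.0916), so the gene-level value was not lower in the libraries labelled Cre-positive. Pou2f3 had 17.8, 0.0 and 4.2 normalized counts in the same Cre-positive libraries, against 17.6, 19.7, 1.8 and 27.9 in the Cre-negative ones, so some reads were counted to it in 6 of the 7 libraries. A count over all exons does not show whether some exons were deleted. The medullary markers Epcam, Krt5, Krt8, Krt14, Aire, Cd80, H2-Aa, Tnfrsf11a, Fezf2 and Cldn4 were all detected, and their summed level was 90044.1 to 120815.8 normalized counts in Cre-positive and 73063.2 to 124278.4 in Cre-negative libraries, with 2 of the 10 called higher and 3 lower. Y-linked genes (Ddx3y, Eif2s3y, Kdm5d and Uty) summed to 3938 normalized counts in Cre-negative 48, and to between 0 and 1.0 in the other 6 libraries.

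Transcripts of the ribosomal protein genes were on the whole somewhat higher in Cre-positive cells, and no member was called lower. Of the 94 members, 88 passed the minimum mean of 5 normalized counts, and 11 of these rose at a limma adjusted p under 0.05, against 4.66% called higher among all 22878 genes tested. No member fell, against 9.11% of all genes tested, so that 12.5% of the members and 13.8% of all genes were called in either direction. Among the 11 were Rpl29, Rps19bp1, Rpl13, Rpl15, Rpl6, Rps7, Rpl32, Rps18, Rpl36 and Rps25. The log2 fold change, Cre-positive over Cre-negative, was above 0 for 78 of the 88 (88.6%), against 45.3% of all genes tested. Its median was 0.34, against a median of -0.10 over all genes tested. Where the mean reached 1000 normalized counts, 10 of 73 members (13.7%) were called higher and 0 lower, against 18.1% and 7.14% of all genes at that level, and the medians were 0.35 for the members and 0.23 for the other genes. The call rate among members with a mean of at least 1000 was thus not above that of all genes there, and the shift was small. Abundance above that floor was not matched. At that level 70 of the 73 members (95.9%) had a log2 fold change above 0, as had 69.1% of all genes.

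**Figure D1:**
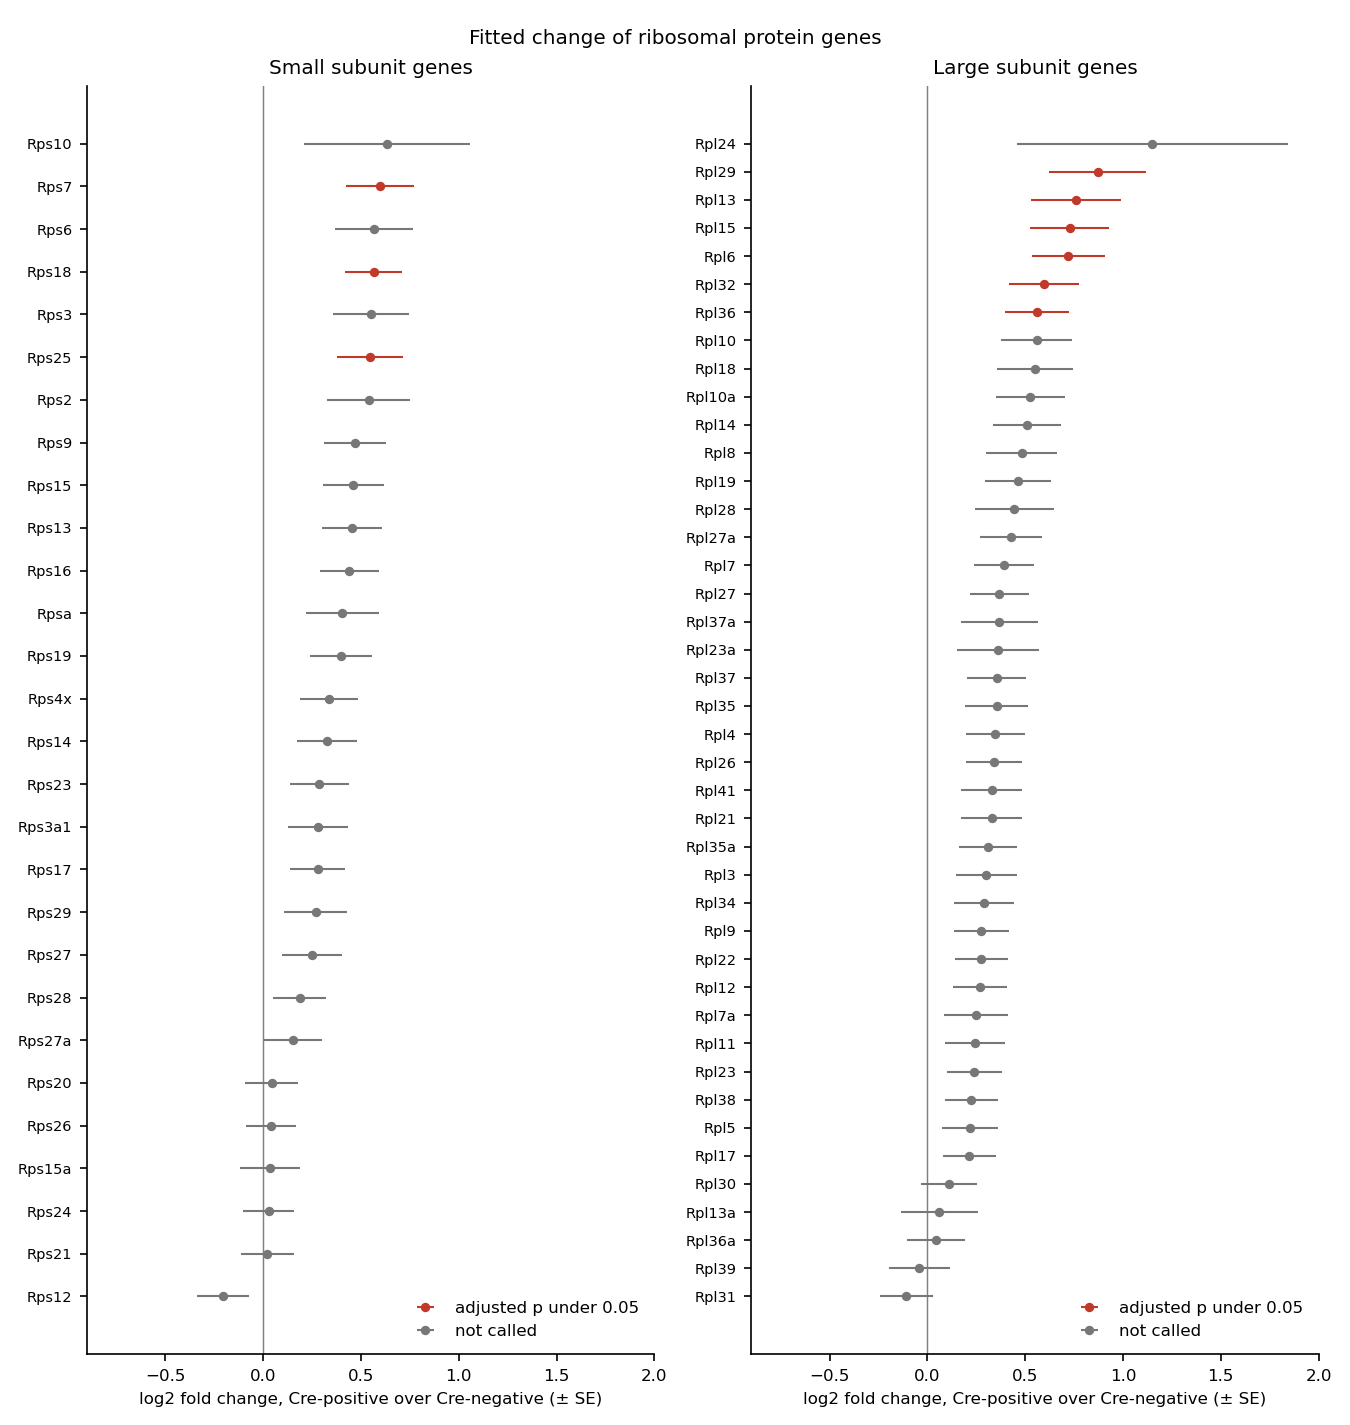
Log2 fold change, Cre-positive over Cre-negative, with its standard error from limma, for 28 small subunit and 42 large subunit genes, ordered by size. Red points passed an adjusted p of 0.05, and 67 of the 70 genes drawn lie right of 0.

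The medians of the subunits were close. For the small subunit, 30 of 31 log2 fold changes were above 0, their median was 0.36, and 3 genes were called higher. For the large subunit, 41 of 43 were above 0, their median was 0.35, and 7 genes were called higher. These calls are 9.68% of the small and 16.3% of the large subunit genes. Of all genes tested 4.66% were called higher, and of those with a mean of at least 1000, 18.1%. The 3 Cre-positive values all lay above the 4 Cre-negative values in 49 of the 88 members tested, against 10.8% of all genes tested and 33.3% of genes with a mean of at least 1000. The reverse order held for 1 member, Rps12, against 14.5% of all genes tested and 10.3% of those with a mean of at least 1000. At an unadjusted p under 0.05, 40 of the 88 members were higher, against 11.1% of all genes tested and 34.7% of those with a mean of at least 1000. At that threshold 0 members were lower, against 17.3% of all genes tested and 12.1% of those with a mean of at least 1000.

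Most calls were lost when 1 Cre-positive library was left out. Without Cre-positive 45 no member was called, without Cre-positive 76 only Rps19bp1, and without Cre-positive 80 only Rps18 and Rps25. Calls over all genes fell too, from 1066 higher in the main fit to 630, 669 and 600 without Cre-positive 45, 76 and 80. Leaving out Cre-negative 46 left 3 member calls (Rpl6, Rps18 and Rps19bp1), and leaving out 77 gave 7 (6 of the 11 and Rpl10). Leaving out 48 left 9, and leaving out 75 gave 11 (9 of the 11, with Rpl14 and Rps9). Over all genes, 675, 831, 785 and 1008 were called higher without Cre-negative 46, 77, 48 and 75. The authors' deposited table gives the opposite ratio, Cre-negative over Cre-positive, and in the authors' deposited table the same 11 members had an adjusted p under 0.05 in the matching direction, against 7.46% of its genes. On recovered reads edgeR called 7 members higher, against 5.06% of all genes, and DESeq2 11, against 6.72%.

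The size of the shift depended on how libraries were scaled. Ribosomal protein genes took 5.42%, 5.32% and 4.96% of all reads in Cre-positive 45, 76 and 80, and 4.86%, 4.25%, 4.96% and 5.10% in Cre-negative 46, 48, 75 and 77. The mean was 5.24% ± 0.24 (SD, n = 3) in Cre-positive and 4.79% ± 0.37 (SD, n = 4) in Cre-negative libraries, and the groups overlapped, since Cre-negative 77 lay above Cre-positive 80. The difference of 0.44 percentage points fell to 0.26 without Cre-negative 48. On the authors' size factors the summed level of the family was 644704, 607623 and 598868 normalized counts in the Cre-positive libraries and 512919, 410964, 525535 and 517442 in the Cre-negative libraries, with no overlap. Normalized totals over all genes also differed, at 11894808, 11410681 and 12065098 in Cre-positive and 10558150, 9668754, 10589743 and 10149419 in Cre-negative libraries. When libraries were scaled to their read totals instead, the median over all genes tested moved to -0.30, the median of the members to 0.14, and no member was called. In that fit 583 of the 22966 genes tested were called higher.

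Reads from the mitochondrial genome moved in the same direction as the family, at 6.71% ± 0.28 (SD, n = 3) of all reads in Cre-positive and 5.11% ± 0.28 (SD, n = 4) in Cre-negative libraries. In such bulk samples, fewer cells of a type and less RNA per cell cannot be told apart. Summed markers of cortical epithelium were 5897.0 to 10617.6 normalized counts in Cre-positive and 12096.7 to 15220.2 in Cre-negative libraries, with 1 of the 5 genes called lower and none at 0. Proliferation markers (Mki67, Top2a, Ccnb1, Cdk1 and Birc5) summed to 4697.1 to 8504.8 in Cre-positive and 3649.5 to 7102.8 in Cre-negative libraries, and none of the 5 was called. The part of these cell types in the ribosomal protein levels was not tested.

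**Figure D2:**
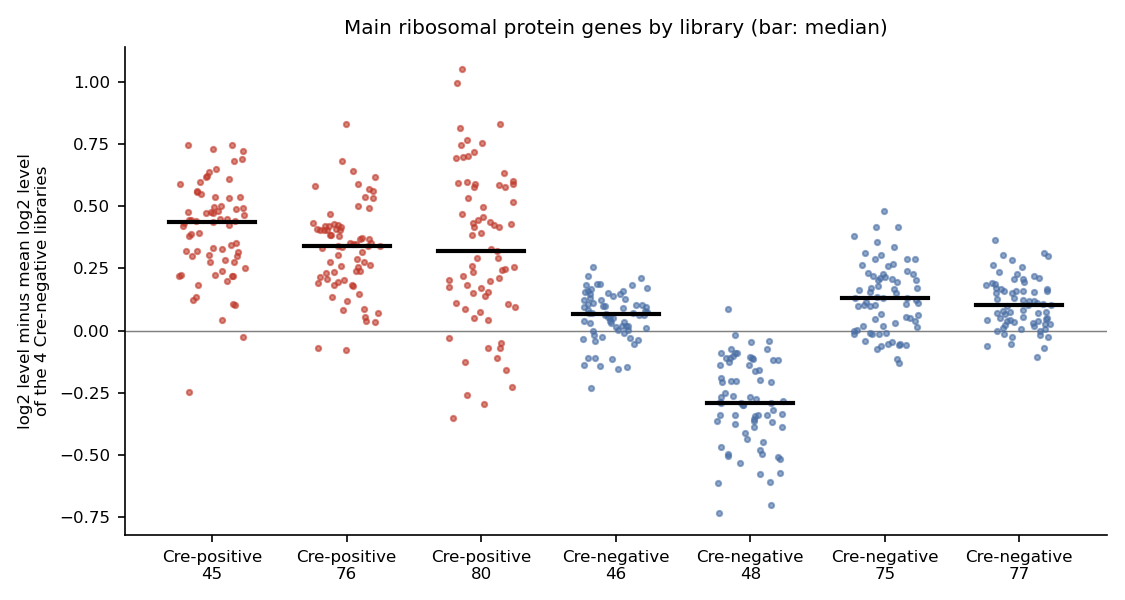
Each point is 1 of the 71 main subunit genes whose mean was at least 1000 normalized counts, as its log2 level in a library minus its mean log2 level over the 4 Cre-negative libraries, and bars are medians. The medians are 0.44, 0.34 and 0.32 in Cre-positive 45, 76 and 80 and 0.07, -0.29, 0.13 and 0.10 in Cre-negative 46, 48, 75 and 77, so Cre-negative 48 stands below the rest.

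The plot of the genes by library shows 1 library apart from its group. Cre-negative 48 had the lowest value of all 7 libraries for 63 of the 71 main subunit genes whose mean was at least 1000 normalized counts (88.7%), against 40.1% of the other genes at that level. It was also the library with Y-linked reads, so its sex and anything else particular to it cannot be told apart. Without it the median log2 fold change of the members was 0.26 in place of 0.34, and 9 members were called higher, with 785 of all 22807 genes tested. With a term for the summed Y-linked level, the median was 0.23 and 2 members, Rpl6 and Rps18, were called. With that term 558 of all 22878 genes tested were called higher. On the log2 scale the term was 11.9 in Cre-negative 48, 0.85 to 1.0 in the other Cre-negative libraries and 0 in the Cre-positive ones. It therefore mainly marks Cre-negative 48, and is neither a check separate from leaving that library out nor a clean term for sex. Cre-positive 45 was the highest of the 7 libraries for 44 of the 71 genes, Cre-positive 80 for 20 and Cre-positive 76 for 5. Cre-positive 80 had the widest spread among genes, with quartiles at 0.13 and 0.58 on the log2 scale, and it was the lowest of all libraries for 7 genes.

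Among the large subunit genes, Rpl29 had the largest called change. Rpl29, also known as a heparin-binding protein, lies at chr9:106429454-106431568 (GRCm38, plus strand). It had 2980.2, 3199.5 and 3726.6 normalized counts in Cre-positive 45, 76 and 80, against 1733.9, 1082.5, 2513.4 and 2220.8 in Cre-negative 46, 48, 75 and 77. All Cre-positive values lay above all Cre-negative values, and the log2 fold change was 0.87 (SE 0.25, limma adjusted p = 0.0337).

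Rpl13, at chr8:123102350-123105244 on the plus strand, had 10784.8, 9633.6 and 13005.6 normalized counts in Cre-positive libraries and 6546.6, 4020.8, 8704.9 and 7948.5 in Cre-negative libraries. Its log2 fold change was 0.76 (SE 0.23, limma adjusted p = 0.0463). RPL13 is mutated in a human skeletal dysplasia. The groups did not overlap, and the Cre-negative values spread more widely than the Cre-positive ones, with Cre-negative 48 lowest.

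Rpl15, at chr14:18267823-18271391 on the minus strand, had 4474.4, 4280.1 and 4502.0 normalized counts in Cre-positive libraries and 2838.4, 1748.4, 3207.0 and 3179.2 in Cre-negative libraries. The 3 Cre-positive values lay close together, and the log2 fold change was 0.73 (SE 0.20, limma adjusted p = 0.0313). RPL15 is one of the large subunit genes mutated in human Diamond-Blackfan anaemia, a failure of red cell production caused by loss of ribosomal proteins. Rpl6, at chr5:121204481-121209241 on the plus strand, had 4296.8, 4164.9 and 4743.9 normalized counts in Cre-positive libraries against 2901.2, 1873.5, 3099.8 and 3004.5 in Cre-negative libraries. Its log2 fold change was 0.72 (SE 0.19, limma adjusted p = 0.0225), and it was 1 of the 2 members still called with the Y-linked term.

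Rpl32 and Rpl36 were called with smaller changes. Rpl32, a gene often used as an internal standard in expression assays, lies at chr6:115805505-115808747 on the minus strand. It had 15977.1, 15281.6 and 14081.1 normalized counts in Cre-positive libraries and 11043.4, 7030.9, 10931.8 and 11669.5 in Cre-negative libraries, with a log2 fold change of 0.60 (SE 0.18, limma adjusted p = 0.0425). Its Cre-negative values were close together except that of 48, which lay far below the others. Rpl36, at chr17:56613395-56614243 on the plus strand, had 8053.3, 7577.7 and 8045.9 normalized counts in Cre-positive libraries against 5339.8, 4095.6, 6269.9 and 5980.0 in Cre-negative libraries, with a log2 fold change of 0.56 (SE 0.16, limma adjusted p = 0.0382).

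Of the small subunit genes, Rps7, Rps18 and Rps25 were called. Rps7, which in humans is another Diamond-Blackfan anaemia gene, lies at chr12:28630854-28635953 on the minus strand. It had 8448.3, 8242.7 and 8231.7 normalized counts in Cre-positive libraries and 5489.8, 4020.8, 6484.3 and 6330.5 in Cre-negative libraries, with a log2 fold change of 0.60 (SE 0.17, limma adjusted p = 0.0366). The Cre-positive mean was 8308 ± 122 and the Cre-negative mean 5581 ± 1128 (SD, n = 3 and 4), so nearly all of the spread lay among the Cre-negative libraries.

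Rps18, a protein of the head of the small subunit, lies at chr17:33951999-33956001 on the minus strand. It had 8731.5, 8051.4 and 7964.9 normalized counts in Cre-positive libraries against 5951.6, 4622.6, 5778.9 and 6044.1 in Cre-negative libraries, with a log2 fold change of 0.57 (SE 0.15, limma adjusted p = 0.0222). It kept its call in 5 of the 7 fits that left out 1 library, losing it without Cre-positive 45 and without Cre-positive 76. Rps25, which viral internal ribosome entry sites require in human cells, lies at chr9:44407139-44410427 on the plus strand. It had 5961.4, 5274.5 and 4438.7 normalized counts in Cre-positive libraries and 3868.3, 2810.2, 3725.0 and 3951.5 in Cre-negative libraries, with a log2 fold change of 0.54 (SE 0.17, limma adjusted p = 0.0487). The nearest values of the groups were Cre-positive 80 and Cre-negative 77.

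Rps19bp1, also called AROS, binds Rps19 and in human cells activates the deacetylase SIRT1. It lies at chr15:80260614-80264306 on the minus strand and had 1014.6, 835.2 and 1093.1 normalized counts in Cre-positive libraries against 566.5, 484.6, 665.7 and 561.4 in Cre-negative libraries. The groups were well apart, with a log2 fold change of 0.78 (SE 0.19, limma adjusted p = 0.0169). The smallest adjusted p of the set thus belonged to a gene that the naming rule takes in but whose product is not a ribosomal protein. Leaving it out, 10 of the 74 main subunit genes were called.

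**Figure D3:**
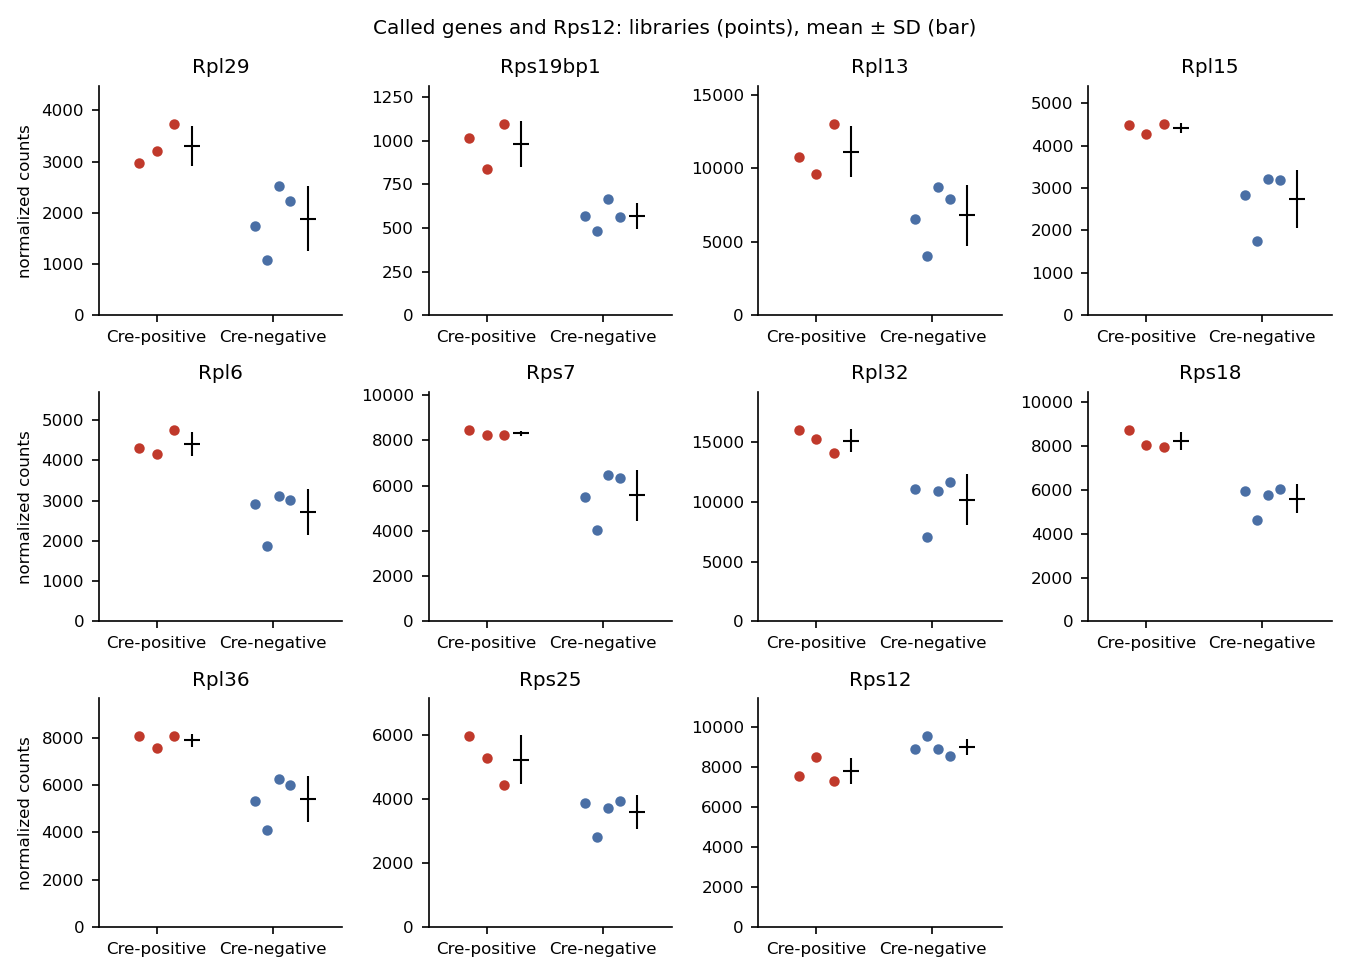
Normalized counts in each library (points) with the mean ± SD of each group (bar) for 10 of the genes called higher and for Rps12, Cre-positive left of Cre-negative, each axis starting at 0. The groups do not overlap in any of the 11 panels, which follows largely from how the genes were chosen, by their call or, for Rps12, after its values were seen. In Rps12 alone of the 11 the Cre-positive values are the lower ones. Of all genes with a mean of at least 1000, 33.3% had groups not overlapping with Cre-positive higher, and 10.3% with Cre-positive lower.

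Rps12 was the member whose values ran the other way. In Drosophila, Rps12 is needed for cells that lack a copy of another ribosomal protein gene to be outcompeted by their neighbours. The mouse gene, at chr10:23785183-23787275 on the minus strand, had 7587.3, 8532.1 and 7330.7 normalized counts in Cre-positive libraries and 8943.3, 9560.4, 8936.4 and 8579.2 in Cre-negative libraries. The groups did not overlap by a small margin, and the change was not called (log2 fold change -0.21, SE 0.13, limma adjusted p = 0.339). Rps12 made up 1.18%, 1.40% and 1.22% of the reads of the family in Cre-positive libraries and 1.74%, 2.33%, 1.70% and 1.66% in Cre-negative libraries. Cre-negative 48, lowest for most members, held the highest Rps12 value. Rps12 was singled out after its values were seen.

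Other members lay close to 0. Rpl31, at the rim of the tunnel through which the new chain leaves the ribosome, had 6666.7, 6466.1 and 5815.1 normalized counts in Cre-positive libraries and 7425.6, 6379.8, 6738.3 and 6684.1 in Cre-negative libraries, with a log2 fold change of -0.11 (SE 0.14, limma adjusted p = 0.649). Rpl39, a small protein lining that tunnel, had 7030.3, 7077.0 and 5119.6 normalized counts in Cre-positive libraries and 7021.7, 6326.6, 5957.3 and 6849.5 in Cre-negative libraries, with a log2 fold change of -0.04 (SE 0.16, limma adjusted p = 0.895). In both genes the groups overlapped, and Cre-positive 80 was the lowest library. The log2 fold changes were also between 0.02 and 0.06 for Rps21, Rps24, Rps15a, Rps26, Rps20, Rpl36a and Rpl13a, none of them called. Among these, Rps24 and Rps26 are further Diamond-Blackfan anaemia genes in humans, and Rps26 sits where the mRNA leaves the small subunit. Log2 fold changes of main subunit genes thus ranged from -0.21 for Rps12 to 0.87 for Rpl29, leaving out Rpl24, which was measured at low counts.

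Rps19, Rpl5, Rpl11, Rps6 and Rpsa were looked at for their known roles in disease and signalling, and none was called. Rps19, the gene most often mutated in Diamond-Blackfan anaemia, had 23433.7, 20642.2 and 18973.3 normalized counts in Cre-positive libraries and 17588.2, 12359.7, 17093.6 and 17126.3 in Cre-negative libraries, with a log2 fold change of 0.40 (SE 0.16, limma adjusted p = 0.120). Rpl5 and Rpl11 carry the 5S rRNA into the ribosome and, when unassembled, bind Mdm2 and stabilize p53. Their log2 fold changes were 0.22 and 0.24 (limma adjusted p = 0.358 and 0.323). Rps6, the target of the S6 kinases downstream of mTORC1, had 6087.8, 5574.9 and 5981.2 normalized counts in Cre-positive libraries and 4288.1, 2594.5, 4847.5 and 4596.7 in Cre-negative libraries. The groups did not overlap, and the log2 fold change of 0.57 was not called (SE 0.20, limma adjusted p = 0.0814). Rpsa, also known as the laminin receptor precursor, had a log2 fold change of 0.40 (SE 0.19, limma adjusted p = 0.172), and its groups overlapped.

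Levels of the members were compared per kilobase of the annotated transcript with the longest coding sequence, as normalized counts per kilobase. Rps14, a small subunit protein whose loss in humans underlies the anaemia of the 5q- syndrome, was the highest at 44651 in Cre-positive and 35608 in Cre-negative libraries. Rps29 followed at 41302 in Cre-positive and 34705 in Cre-negative libraries, Rps27 at 33408 in Cre-positive and 27880 in Cre-negative libraries, and Rpl38 at 32422 in Cre-positive and 27722 in Cre-negative libraries. In normalized counts, not per length, the highest members were Rps14 with a mean of 23572 over all libraries, Rps19 with 18174 and the paralogue Rps27l with 16182. Of these, none was called. At the other end, Rpl24, Rps10 and Rpl13a had 48.5, 102.9 and 577.6 normalized counts per kilobase in Cre-positive and 25.3, 66.9 and 554.4 in Cre-negative libraries, far below the rest of the main subunit genes.

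The low values of those 3 genes coincided with overlapping gene models. The exons of Rps10, Rpl24 and Rpl13a overlap, on the same strand, the exons of RPS10-NUDT3, Gm28037 and Gm45713, which share 64.7%, 69.4% and 57.4% of the 50-base words of the member's transcript. The 3 overlapping rows are listed at 0 in all 7 libraries. The deposited values of Rps10, Rpl24 and Rpl13a are therefore uncertain as measures of those genes, and the log2 fold changes of 0.63 for Rps10 (SE 0.42, limma adjusted p = 0.361) and 1.15 for Rpl24 (SE 0.69, limma adjusted p = 0.306) carry wide errors. The mouse genome also holds many processed copies of this family. Over the 74 main subunit genes, the median share of 50-base words found in a transcript of another gene was 62.4%, and it reached 98.6% for Rps27, so reads could be split or dropped depending on how multiply mapping reads were counted, which is not given in the sources used here. Across these 74 genes the Spearman correlation of the share of such words with the log2 fold change was 0.14. For 19 members an exon overlaps one of a gene on the opposite strand, and without a stated strand setting such reads cannot be told apart. Among the called members these are Rps18, Rps25, Rpl15 and Rpl32, of which Rps25 has the longest overlap with 1 gene, 17.2% of its exon bases with Trappc4.

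Rows annotated as ribosomal protein pseudogenes, which are not members, took 0.0266% ± 0.0037 (SD, n = 3) of all reads in Cre-positive and 0.0294% ± 0.0047 (SD, n = 4) in Cre-negative libraries. Of these 270 rows 74 were tested, none was called, and their median log2 fold change was 0.09. The 11 members with pseudogene symbols were also low. Among them Rps12-ps3, Rps2-ps6, Rpl36-ps4, Rpl7a-ps3 and Rpl9-ps1 were below the minimum mean, as was the paralogue Rpl10l. The 6 that were tested had log2 fold changes from -0.26 to 0.05 and none was called. The lowest of these by mean count, Rpl7a-ps5, had 5.2, 10.0 and 5.2 normalized counts in Cre-positive libraries, against 6.7, 13.8, 4.5 and 6.2 in Cre-negative libraries. Rpl23a-ps3 had 8.4, 10.0 and 5.2 in Cre-positive libraries, against 12.6, 7.9, 9.0 and 8.3 in Cre-negative libraries, and in both the groups overlapped.

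The paralogues differed widely in level, and none of the 7 tested was called. Rps27l, which p53 induces in human cells, was nearly as abundant per kilobase as its main copy Rps27. The ratio of Rps27l to Rps27 was 0.965 ± 0.070 (SD, n = 3) in Cre-positive and 0.895 ± 0.036 (SD, n = 4) in Cre-negative libraries. Rps27 shares 98.6% of its 50-base words with the retrogene Rps27rt, and Rps27l shares 13.7% with other transcripts, so this ratio is uncertain. Rps27l itself had 22510.0, 18093.6 and 15131.6 normalized counts in Cre-positive libraries and 17150.0, 13589.0, 13273.1 and 13529.4 in Cre-negative libraries, so the groups overlapped (log2 fold change 0.36, SE 0.16, limma adjusted p = 0.173). Rpl22l1, which in mice rises when Rpl22 is lost, stood at 0.590 ± 0.136 of Rpl22 per kilobase in Cre-positive and 0.591 ± 0.097 in Cre-negative libraries. Its own values were 4568.5, 4131.8 and 2697.9 normalized counts in Cre-positive and 4004.0, 2921.5, 3036.8 and 2572.3 in Cre-negative libraries.

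Rpl7l1, a nucleolar relative of Rpl7, and Rpl36al, a close relative of Rpl36a, were minor copies. Rpl7l1 had 1089.9, 1145.6 and 1152.2 normalized counts in Cre-positive libraries and 693.9, 640.2, 846.8 and 997.7 in Cre-negative libraries, which do not overlap (log2 fold change 0.53, SE 0.19, limma adjusted p = 0.0878). Rpl36al had 874.6, 727.0 and 811.7 normalized counts in Cre-positive libraries and 620.1, 586.1, 596.4 and 667.9 in Cre-negative libraries, also without overlap (log2 fold change 0.38, SE 0.18, limma adjusted p = 0.178). Per kilobase Rpl7l1 stood at 0.065 ± 0.0045 of Rpl7 in Cre-positive and 0.059 ± 0.0084 in Cre-negative libraries. Rpl7 shares 66.8% of its 50-base words with other transcripts and Rpl7l1 12.2%, so this ratio is uncertain. Rpl36al stood at 0.129 ± 0.018 of Rpl36a in Cre-positive and 0.102 ± 0.0072 in Cre-negative libraries. Its exons overlap those of the protein-coding gene model Gm49383 on the same strand over 24.5% of their bases, and 59.5% of the 50-base words of its transcript are shared with that gene, so its level and ratio are uncertain.

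The paralogues known for restricted tissues were near 0. Rpl3l, the striated muscle copy of Rpl3, had 8.4, 2.0 and 1.0 normalized counts in Cre-positive libraries and 17.6, 7.9, 0.0 and 11.4 in Cre-negative libraries. Rpl39l, the male germ cell copy of Rpl39, had 25.1, 0.0 and 26.0 in Cre-positive libraries and 44.4, 4.9, 0.0 and 1.0 in Cre-negative libraries. For both, the values varied many-fold within a group, and the groups overlapped. Rpl10l, the testis copy of Rpl10, had at most 2.1 normalized counts in any library. The retrogene Rps27rt had 78.4, 70.1 and 45.7 in Cre-positive libraries and 74.6, 90.6, 66.7 and 70.3 in Cre-negative libraries, and shares 91.1% of its 50-base words with other transcripts. Rps4l, annotated as a transcribed processed pseudogene and so no member, had 1023.0, 1095.5 and 2032.5 in Cre-positive libraries and 1009.0, 800.8, 1654.9 and 1421.6 in Cre-negative libraries.

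The start sites of the genes were read from RefSeq promoter windows (GRCm38.p6), which were found for 64 of the 94 members. Below are the 15 bases before the annotated start and the 15 bases from it, 5′ to 3′ on the gene's strand, for genes that were called higher and for genes that were flat or lower. Capitals mark the longest unbroken run of C and T that overlaps the 10 bases around the start. A TOP tract begins with a C at the start base itself, so a marked run that ends before the start, as in Rpl6, is not one.
Rpl15: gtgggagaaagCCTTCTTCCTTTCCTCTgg
Rps18: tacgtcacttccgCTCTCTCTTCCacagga
Rpl6: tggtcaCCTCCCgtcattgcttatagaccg
Rps7: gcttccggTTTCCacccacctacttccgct
Rpl13: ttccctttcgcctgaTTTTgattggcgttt
Rps25: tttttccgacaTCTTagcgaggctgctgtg
Rps24: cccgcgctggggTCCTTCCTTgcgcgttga
Rps21: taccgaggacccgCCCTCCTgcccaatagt
Rpl31: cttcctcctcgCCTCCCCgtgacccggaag
Rps12: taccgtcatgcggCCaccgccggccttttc
The windows lie at chr14:18270972-18271001 (minus strand) for Rpl15, chr17:33955651-33955680 (minus) for Rps18, chr5:121204486-121204515 (plus) for Rpl6, chr12:28635939-28635968 (minus) for Rps7, chr8:123102335-123102364 (plus) for Rpl13 and chr9:44407699-44407728 (plus) for Rps25. Those of the flat or lower genes lie at chr14:24490663-24490692 (plus) for Rps24, chr2:180257364-180257393 (plus) for Rps21, chr1:39367836-39367865 (plus) for Rpl31 and chr10:23787195-23787224 (minus) for Rps12.

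A pyrimidine run was present in both kinds of gene. Among those called higher, Rpl15 had a run of 17 and Rps18 a run of 11, while Rpl13 and Rps25 had runs of 4 near the annotated start. Among those near 0, Rps24 had a run of 9 and Rps12 a run of 2. Over the 64 windows, 20 (31.2%) held a run of at least 8 pyrimidines overlapping the 10 bases around the start, against 9.30% of 27025 promoter windows. A C at the start base followed by at least 4 pyrimidines was found in 18.8% of member windows, against 2.49% of all. Among main subunit genes with a window and a mean of 1000 normalized counts or more, the 16 with a run of at least 8 had 2 calls and a median change of 0.39 on the log2 scale, and the 36 with a shorter run had 4 calls and a median of 0.34. Of all genes with a mean of at least 1000, 18.1% were called higher, and the split by run was not tested. An annotated start that is off by a few bases hides a tract, so a short run says only that these letters are not at the annotated base.

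Short motifs were searched on both strands of windows from 250 bases before the start to 50 bases from it. TGGGAA, the core of Ikaros binding sites, was found in 26.6% of the member windows, against 25.5% of all 27025 windows. CCGGAAG, the core bound by GABPA and other ETS factors, was in 37.5% against 9.12%, AANATGGC, bound by YY1, in 18.8% against 6.23%, and GGGCGG, bound by SP factors, in 59.4% against 35.9%. The 12 main subunit genes with TGGGAA had 2 calls and a median of 0.26 on the log2 scale, and the 40 without it 4 calls and a median of 0.37. The 21 with CCGGAAG had 5 calls and a median of 0.35, and the 31 without it 1 call and a median of 0.34. The 8 with AANATGGC had 0 calls and a median of 0.30, and the 44 without it 6 calls and a median of 0.35. Of all genes with a mean of at least 1000, 18.1% were called higher. The share among all genes with or without each motif was not computed, and no split was tested. A match of this length is a description of the window and no evidence of binding.

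Transcript composition ran along with the size of the change. Over the 71 main subunit genes whose mean was at least 1000 normalized counts, the GC percent of the transcript and the log2 fold change had a Spearman correlation of 0.48 and a Pearson correlation of 0.47, given as a description across genes that share the same 7 libraries. The 25 genes richest in GC, from 53.3% to 60.8%, held 7 of the 10 calls and had a median log2 fold change of 0.47. The 23 genes poorest in GC, from 41.3% to 49.1%, had a median of 0.27 and 1 call, Rps25. Of all genes with a mean of at least 1000, 18.1% were called higher, and their call share by GC was not computed. For the other genes at that level the Spearman correlation was 0.12 (n = 1768). Within the family it was 0.37 without Cre-positive 80 and between 0.44 and 0.51 without any other single library. In single libraries the median of the GC-richest genes, as log2 level minus the Cre-negative mean, was 0.49, 0.40 and 0.58 in Cre-positive 45, 76 and 80 and 0.01, -0.36, 0.23 and 0.16 in Cre-negative 46, 48, 75 and 77. For the GC-poorest genes it was 0.31, 0.22 and 0.18 in Cre-positive 45, 76 and 80. In Cre-negative 46, 48, 75 and 77 it was 0.08, -0.16, 0.04 and 0.04, so libraries within the Cre-negative group also differed by GC. The part of library preparation in this pattern was not tested.

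**Figure D4:**
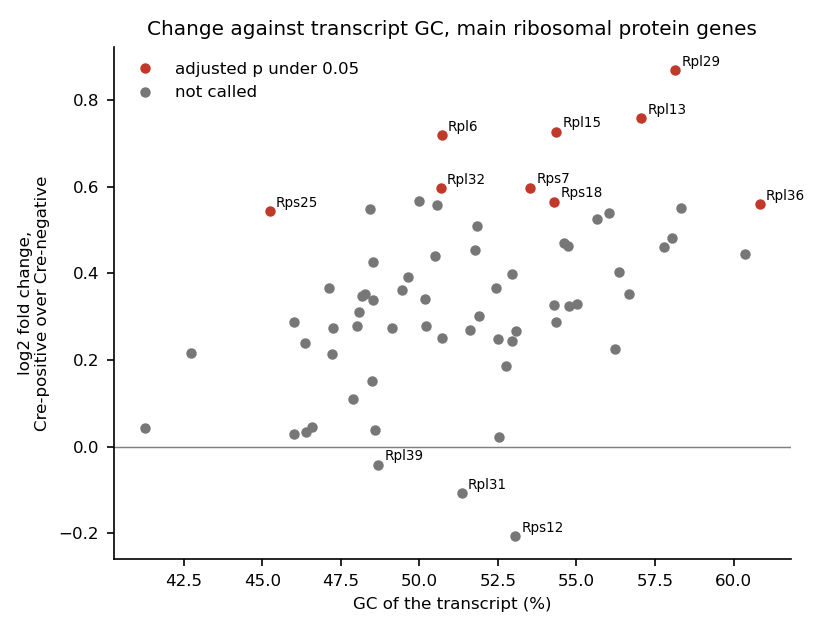
GC percent of the transcript against the log2 fold change, Cre-positive over Cre-negative, for 67 main subunit genes whose mean was at least 1000 normalized counts, with genes called higher in red and named. Rpl13 at 57.1% GC and Rpl29 at 58.1% GC stand at the upper right, and Rps12 at 53.0% GC is the lowest point.

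Other properties of the members were set beside the change as well. The 28 of these genes with a snoRNA gene inside them had a median log2 fold change of 0.36, against 0.34 for the 43 without one. The 4 X-linked genes, Rpl10, Rpl36a, Rpl39 and Rps4x, had a median of 0.19 and the 67 autosomal genes 0.35. Transcript length had a Spearman correlation of 0.15 with the log2 fold change.

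The ribosomal proteins that the naming rule leaves out gave 0 calls among 6 by limma, with 2 at an unadjusted p under 0.05. Their log2 fold changes ran from -0.03 to 1.04, with a median of 0.20. The stalk proteins Rplp1 and Rplp2 were flat, with 12643.7, 13104.5 and 12438.9 normalized counts for Rplp1 in Cre-positive libraries and 12763.0, 12734.0, 12990.2 and 13588.4 in Cre-negative libraries. Rplp0 had a log2 fold change of 0.28 and Rack1, a scaffold for protein kinase C on the small subunit, one of 0.11, which turned to -0.090 when libraries were scaled to read totals. Fau, a small subunit protein made as a fusion to a ubiquitin-like protein, had 4676.1, 4312.1 and 5429.0 normalized counts in Cre-positive libraries against 3334.5, 2908.7, 4661.0 and 3971.2 in Cre-negative libraries, which overlap, and was not called (log2 fold change 0.39, SE 0.18, limma adjusted p = 0.174).

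Genes that build or use the ribosome were read from the same fit. Of 54 ribosome biogenesis factors 7 were called higher (13.0%, against 4.66% of all genes tested and 18.1% of those with a mean of at least 1000) and none lower, and the median was 0.31 on the log2 scale. Gnl3 (nucleostemin), a nucleolar GTPase of dividing cells, had 2198.5, 2148.0 and 2026.3 normalized counts in Cre-positive libraries against 1205.1, 847.1, 1136.0 and 1112.5 in Cre-negative libraries. Its log2 fold change of 0.99 (SE 0.17, limma adjusted p = 0.0024) was larger than that of any called ribosomal protein. Mrto4, which helps place the stalk on the large subunit, had a log2 fold change of 1.0 (limma adjusted p = 0.0236), and Dkc1, the pseudouridine synthase dyskerin, one of 0.81 (limma adjusted p = 0.0402). Also called higher were Nhp2, Nop58, Ebna1bp2 and Wdr43.

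Translation factors moved less uniformly. Of all genes tested, 4.66% were called higher and 9.11% lower, and of those with a mean of at least 1000, 18.1% and 7.14%. Of 36 initiation factor genes 3 were called higher (8.33%) and 1 lower, with a median of 0.19. Eif2s1, the subunit of eIF2 that stress kinases phosphorylate, and Eif4a1, the helicase of the cap-binding complex, had log2 fold changes of 0.97 and 0.83 (limma adjusted p = 0.00448 and 0.0272), and Eif3m was also called. Eif2b5, of the exchange factor that recharges eIF2, was the lower one at -0.76 (limma adjusted p = 0.0347). Of 13 genes in the elongation list 2 were called higher (15.4%) and none lower, with a median of 0.41. These were Eef1e1, a component of the aminoacyl-tRNA synthetase complex, at 0.93 and Btf3, of the nascent-chain associated complex, at 0.84 (limma adjusted p = 0.0123 and 0.0223), neither of which is an elongation factor in the strict sense. Of 18 regulators around mTORC1 and Myc only Rheb, the GTPase that activates mTORC1, was called, at 0.71 (limma adjusted p = 0.0245), and the median was -0.03.

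The mitochondrial ribosomal proteins, encoded in the nucleus by a separate gene family, had more calls. Of 77 tested, 25 were called higher (32.5%, against 4.66% of all genes tested and 18.1% of those with a mean of at least 1000). None was called lower, against 9.11% and 7.14%. The median was 0.61 on the log2 scale. The cytosolic family had 11 of 88 called and a median of 0.34 in the same fit. The difference between the families was not tested. Mrps24, Mrps25 and Mrpl22 had the largest called changes, at 1.31, 1.07 and 1.06 (limma adjusted p = 0.0446, 0.0194 and 0.00804). Mitochondrial ribosomal transcripts took 0.961%, 0.958% and 0.983% of all reads in Cre-positive libraries and 0.811%, 0.660%, 0.863% and 0.859% in Cre-negative libraries, which do not overlap. Over all these related lists 39 genes were called, against 13 without Cre-positive 45, 23 without Cre-positive 76, 9 without Cre-positive 80, 17 without Cre-negative 46 and 18 without Cre-negative 48. In the same order, calls over all genes went from 1066 higher to 630, 669, 600, 675 and 785. Those lower went from 2084 to 1714, 1759, 1688, 1315 and 1552.

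**Figure D5:**
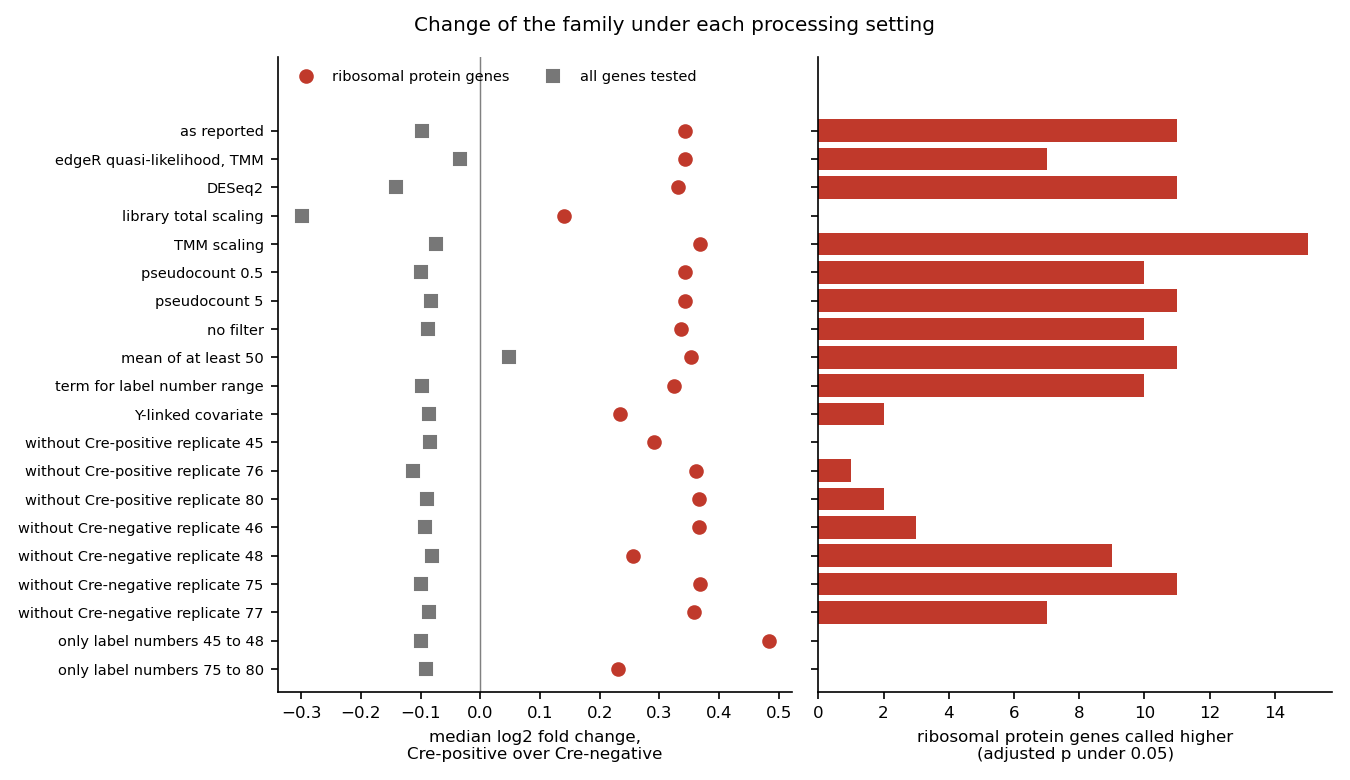
Left, the median log2 fold change, Cre-positive over Cre-negative, of the ribosomal protein genes (circles) and of all genes tested (squares) under each processing setting, and right, the number of ribosomal protein genes called higher. The median of the family lies above that of all genes in every setting shown, by 0.30 to 0.58, while the number called runs from 0 to 15.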

How the data were processed

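The submitters' processing notes name the aligner STAR 2.7.9a, DESeq2 and build GRCm39. How reads were counted per gene, with which strand setting and what was done with multiply mapping reads is not stated there. Per the file headers, the authors deposited 1 table of normalized counts, a signal in which each library's counts are divided by a size factor, with log2 fold changes and adjusted p-values of their own. Gene coordinates in the deposited table equal those of GENCODE M21 (GRCm38) for 95.2% of the 52489 genes that have them, so positions are given on GRCm38.

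Whole reads were recovered from the deposited signal: 100% of values in each library were whole multiples of 1 read within 0.0501 normalized counts. Because the deposited values are normalized, the main test was limma, with its trend option, on log2(normalized count + 1), over the 22878 genes with a mean of at least 5, with group as the only term and Benjamini-Hochberg adjustment over all of them. A log2 fold change is on that scale and is positive where Cre-positive is higher. For low genes it can be larger or smaller than by other methods. Rpl39l was 0.89 by limma, 0.41 by edgeR and 0.43 by DESeq2, and Rpl3l was -0.81 by limma and -1.28 by DESeq2. On the recovered reads edgeR's quasi-likelihood test called 5.06% of genes higher, or 1011, and DESeq2 6.72%, or 1533. The fits were tested on simulated data.

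Named members are the paralogues with their main copies, up to 10 called members by size of change, the 3 highest and 3 lowest by mean, Rps19, Rpl5, Rpl11, Rps6, Rpsa and Rack1, and the 3 largest calls of each related list; the others were named after their values were seen. A few genes that count in the totals are not reported here by name. The members and lists were chosen with earlier results of these data known. Cell-type markers of T, B, myeloid, erythroid, endothelial and fibroblast cells were summed as well: of these lists, fibroblast markers were 132.6 to 355.6 normalized counts in Cre-positive and 387.4 to 663.8 in Cre-negative libraries, and myeloid markers 7410.4 to 11369.6 in Cre-positive and 5225.5 to 6943.8 in Cre-negative libraries, while T, B, erythroid and endothelial markers overlapped. Most of the myeloid sum was Lyz2, the 1 gene of those 7 called higher; the other 6 had log2 fold changes below 0, and Adgre1 and Itgam were called lower. Sequences are from RefSeq, and 50-base words, GC and length from GENCODE M21 transcripts. The Python (3.11.15) steps used pandas 2.3.3, numpy 2.4.6 and, for plots, matplotlib 3.10.9. The fits used DESeq2 1.42.0, edgeR 4.0.16 and limma 3.58.1 in R 4.3.3.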

Additional observations from a re-analysis of the deposited data

Results flagged for a closer look

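Of 99 single values checked in the Cre-negative group, 12 held a library whose gap to its nearest neighbour exceeded Dixon's 95% critical value for 4 samples; chance gives about 1 in 20, and these genes share their libraries. Cre-negative 48 was the stray library on the low side in 8 of them. Its normalized counts there were 1873.5 for Rpl6, 7030.9 for Rpl32, 4259.1 for Rps13, 3439.6 for Rps16, 12359.7 for Rps19, 781.1 for Rpl23a, 7629.8 for Rpl37 and 3786.3 for Rps4x. Cre-negative 46 was the stray library on the high side in the other 4, with 44.4 normalized counts for Rpl39l, 17150.0 for Rps27l, 25230.9 for Rps14 and 10890.0 for Rps27. Of these genes, Rpl6 and Rpl32 were among those called higher in Cre-positive libraries, and both were still called without Cre-negative 48. The 3 Cre-positive libraries are too few for this check.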

How the results depend on the processing

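The number of members called higher, 11, was 7 by edgeR, 0 with libraries scaled to read totals, 2 with the Y-linked term and 0 to 11 when each library was left out. Over all genes, 1066 were called higher in the main fit, 1011 by edgeR, 583 with read totals and 558 with the Y-linked term. That number was 600 to 1008 when each library was left out. The median log2 fold change of the members, 0.34, was 0.14 with read totals, 0.23 with the Y-linked term and 0.26 to 0.37 when each library was left out. Calls over the related lists, 39, were 13 with read totals, 10 with the Y-linked term and 9 to 41 when each library was left out. Fits restricted to label numbers 45 to 48 (1 Cre-positive against 2 Cre-negative libraries, the lone library taken to vary like the others) and to 75 to 80 were chosen after seeing the data. The first gave a member median of 0.48, given as an effect size only because that fit holds 1 Cre-positive library. The second gave a median of 0.23, 0 member calls and 1 call over the related lists. In the second, 251 of 23201 genes tested were called higher, with fewer samples by construction. DESeq2, TMM scaling, both pseudocounts, both filters and the label number term gave 10 to 15 member calls, and no setting called a member lower. Scaling to read totals moved the median of all genes from -0.10 to -0.30. The share of reads differed by 0.26 to 0.58 percentage points when each library was left out, and by 0.60 among nuclear protein-coding reads.

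Among the genes named, signs turned for 4, none of them called. With read totals Rack1 was -0.090 and Rpl36a -0.16. Rpl36a was -0.018 with the Y-linked term, -0.044 in numbers 75 to 80 and -0.053 to 0.15 when each library was left out, below 0 without Cre-positive 45 and without Cre-negative 48. Rpl7a-ps5 was 0.25 with the Y-linked term, 0.39 in numbers 75 to 80 and -0.40 to 0.16 when each library was left out, above 0 without Cre-positive 45, Cre-positive 80 or Cre-negative 48. Rpl39 was 0.077 in numbers 45 to 48 and -0.12 to 0.11 when each library was left out, above 0 without Cre-positive 80. The causes were not tested. No paired analysis was possible because the groups share no replicate number. Shared sequence limits which copy a read can be given to, and read counts cover counting error only.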
